A study of Mus musculus with 3 samples.

Results

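The ATP-binding cassette (ABC) transporter genes were measured in thymic γδNKT cells that had, or lacked, a functional gene for the transcription factor PLZF. The members were chosen by symbol, as genes named Abca to Abcg with a number, each read from a probe set that lists no other gene. This gave 48 genes on 49 probe sets, out of 19518 genes measured in the same way on the arrays. Abcb5 alone had more than 1 such probe set, and the one to use was selected on its mean log2 intensity. The data are 3 Affymetrix Mouse Gene 1.0 ST arrays of total RNA, 1 array each for PLZF lu/lu, PLZF +/lu and PLZF +/+ cells. The lu allele is luxoid, a point mutation of the PLZF gene. All cells were from female mice on the C57Bl/6 background, labelled adult and 3 to 4 weeks of age. Per the study's methods, all 3 genotypes also carried the Vγ1Vδ6.4 T cell receptor transgenes and lacked Rag1, and the cells were CD4+CD8α- thymocytes sorted a second time directly into lysis reagent. A single transgenic receptor therefore stands for the population, and the number of mice behind each sample is not stated in the sources used.

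Zbtb16, which encodes PLZF, was at an intensity of 2890 in PLZF lu/lu, 6143 in PLZF +/lu and 8796 in PLZF +/+ cells. A point mutation need not remove the transcript, so this level is only a partial check of the labels. The T cell gene Cd3e was at 10599, 11334 and 10550 in the same order of genotypes, and Cd4 at 7191, 6208 and 6401. The background of the arrays was read from the olfactory receptor probe sets, whose genes have no known use in T cells. Of the values of these 1033 probe sets, 95% lay below 108, and this is called the olfactory receptor level here. Each genotype has a single array and no replicate, so differences carry no p-value and a 2-fold threshold only sorts them by size. A large share of probe sets had the same deposited value on all 3 arrays, to within 1e-06 on the log2 scale. This was so for 46.8% of all genes and for 21 of the 48 ABC transporter genes (43.8%). The reason is not known, so equal values and medians of 0.00 describe the deposited table and do not show that a transcript was unchanged.

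ABC proteins bind and hydrolyse ATP at a conserved cassette. In most of them, this drives lipids, peptides, drugs or conjugates across a membrane. The A and G subfamilies are best known for moving sterols and phospholipids, B for P-glycoprotein and for pumps of the mitochondrion and lysosome, C for pumps of organic anions, and D for the import of fatty acids into peroxisomes. E and F proteins have no membrane domain and work at the ribosome. P-glycoprotein is encoded in the mouse by a pair of closely related genes, Abcb1a and Abcb1b, and exports many hydrophobic drugs and dyes from lymphocytes.

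In PLZF lu/lu against PLZF +/+ cells, both P-glycoprotein genes were more than 2-fold higher and Abcc1, which encodes the multidrug resistance protein MRP1, was more than 2-fold lower. Abcb1a and Abcb1b lie next to each other on chromosome 5. The bases before their annotated starts are shown because the pair differed in the same direction between the genotypes. They are 250 bases on the plus strand in each case, taken from RefSeq (GRCm38.p6). Capitals mark matches to the CCAAT box (CCAAT) and the GC box (GGGCGG) on either strand.
Abcb1a, chr5:8566841-8567090: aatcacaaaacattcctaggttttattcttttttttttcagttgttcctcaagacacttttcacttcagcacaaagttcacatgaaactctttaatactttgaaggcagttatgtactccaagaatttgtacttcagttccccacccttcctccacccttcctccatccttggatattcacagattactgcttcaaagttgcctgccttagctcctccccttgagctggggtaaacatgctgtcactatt
Abcb1b, chr5:8797897-8798146: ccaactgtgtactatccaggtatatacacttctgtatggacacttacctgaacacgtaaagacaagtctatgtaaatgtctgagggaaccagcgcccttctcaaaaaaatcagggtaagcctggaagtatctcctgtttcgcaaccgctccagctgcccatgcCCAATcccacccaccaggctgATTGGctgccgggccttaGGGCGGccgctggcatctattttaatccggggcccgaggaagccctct

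The window of Abcb1b held 2 CCAAT boxes, 87 bases before the start on the plus strand and 66 bases before it on the minus strand, and 1 GC box 48 bases before the start. That of Abcb1a held neither motif. The annotated start of Abcb1a lies inside the gene model of its neighbour Rundc3b, on the opposite strand. Whether these cells start Abcb1a transcripts there was not tested, so its window need not be the promoter in use. Of 32851 RefSeq windows of the same length, 33.8% held a CCAAT box and 32.7% a GC box. The E-box (CANNTG), which reads the same on both strands, occurred at 2 places in each of the windows and in 66.2% of all windows. None of these matches overlapped another. The TATA box (TATAAA) was found in neither window, and in 12.4% of all. The Abcb1a window was 40.4% G and C with 0 CpG, that of Abcb1b 52.8% with 9 CpG, and the median of all windows was 52.4%. A match is a run of letters and says nothing of whether a factor binds.

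Against the olfactory receptor level, 26 of the 48 ABC transporter genes were brighter on all 3 arrays and 22 were dimmer on all 3, so that none crossed the level between genotypes. The share above it was 54.2%, against 61.3% of all measured genes that were above it on any array. The 22 dim genes ranged over intensities of 24.3 to 83.4. By their brightest array, the members nearest to the level were Abcc12 (79.6, 82.5 and 79.6 in PLZF lu/lu, PLZF +/lu and PLZF +/+) and Abcc9 (83.4 on each array) below it. Above it the nearest by the same measure were Abcb4 (113, 117 and 113) and Abcc8 (123, 131 and 123), while Abcb1b, at 119 in PLZF +/+ alone, was near the level on that array. With 99% in place of 95% of the olfactory receptor values as the bound, at 178, 20 members were above it on all 3 arrays and 21 on at least 1, the difference being Abcb1b, which was below it in PLZF +/+. Intensities of different probe sets depend on their probes and do not rank the genes.

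**Figure D1:**
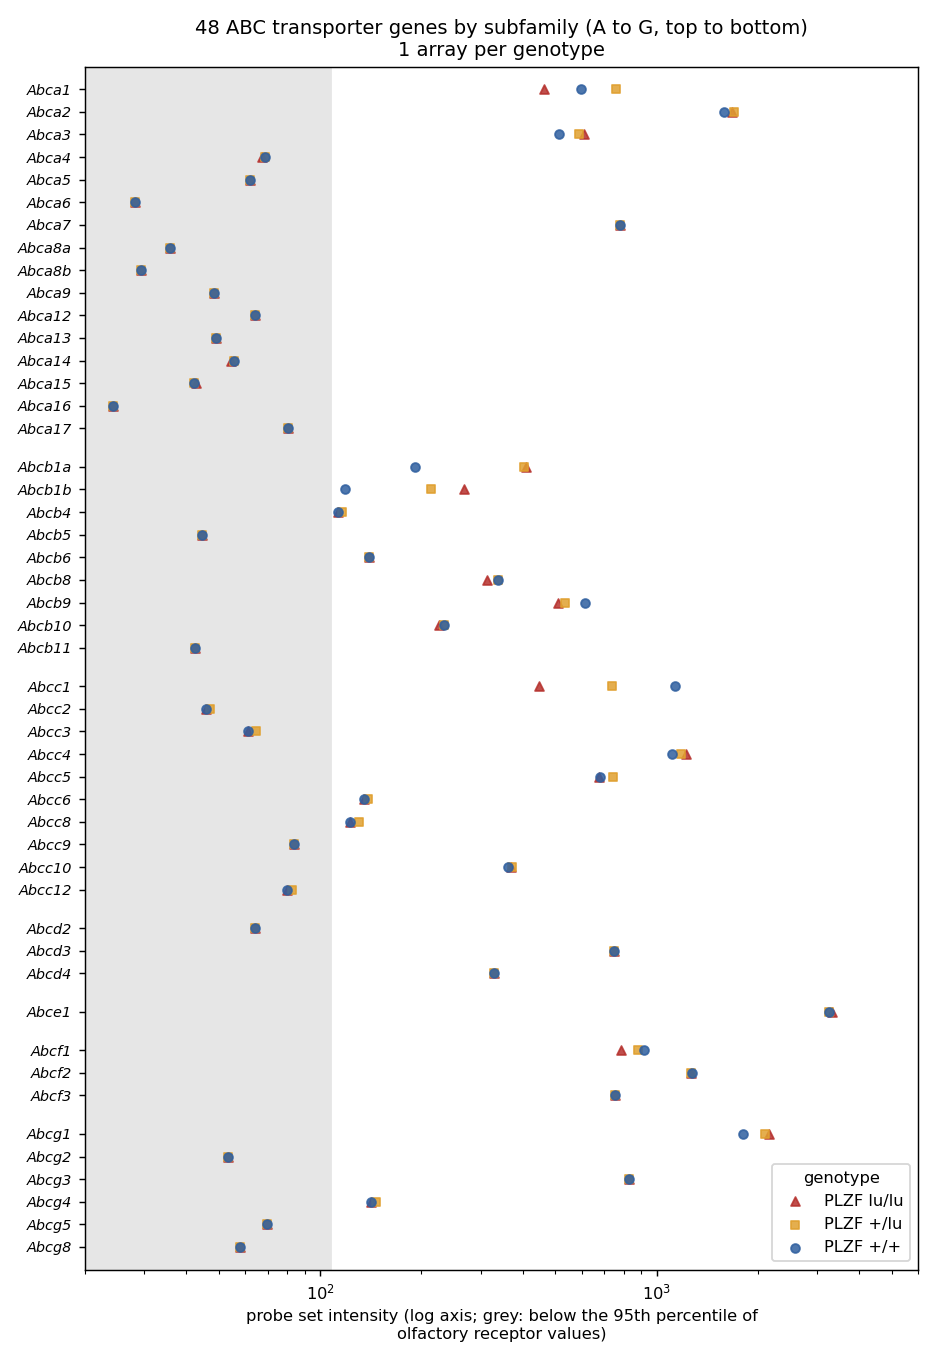
Probe set intensity of the 48 ABC transporter genes on a log axis, by subfamily from A at the top to G at the bottom, without error bars because each genotype has 1 array. Triangles are PLZF lu/lu, squares PLZF +/lu and circles PLZF +/+; 22 genes lie in the grey zone below the olfactory receptor level of 108, and the symbols separate clearly at Abcb1a, Abcb1b and Abcc1.

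By subfamily, 4 of 16 A genes, 7 of 9 B genes, 6 of 10 C genes, 2 of 3 D genes, the E gene, all 3 F genes and 3 of 6 G genes were above the level. Dim genes included Abcb11, the bile salt export pump of liver, Abcg5 and Abcg8, partners in a sterol pump of liver and gut, Abca4 of the retina and Abca12 of the skin. Abcg2, a drug pump that marks stem cell side populations, was dim too, at 53.1 on each array, as was Abcd2, a peroxisomal transporter, at 63.9. A dim value does not show that a gene is silent, only that it could not be told from the background.

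Between PLZF lu/lu and PLZF +/+ cells, 3 of the 26 members above the olfactory receptor level differed by more than 2-fold. Of all 11872 genes above the level on either of these arrays, 0.699% did so. By direction, 2 members were higher in PLZF lu/lu, where 0.253% of all genes were, and 1 was lower, where 0.446% were. Over all 48 members the count was also 3, beside 0.43% of all genes without a filter. Since Abcb1a and Abcb1b were singled out with their difference already known, these counts describe the arrays and test nothing. At 1.5-fold the count stayed at 3 of 26, where 2.25% of all genes passed. The median log2 difference was 0.00 for the 26 members and 0.00 for all genes above the level. Of the 26, 8 were higher in PLZF lu/lu to any degree, 9 lower and 9 equal, and of all genes above the level on any array 2343 were higher, 4274 lower and 5356 equal.

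Abcb1a had intensities of 408 in PLZF lu/lu, 405 in PLZF +/lu and 192 in PLZF +/+ cells. It was thus 2.13-fold higher in PLZF lu/lu and 2.11-fold higher in PLZF +/lu than in PLZF +/+, and the PLZF lu/lu and PLZF +/lu values lay within 1.01-fold of each other. Abcb1b was at 268 in PLZF lu/lu, 213 in PLZF +/lu and 119 in PLZF +/+ cells, 2.25-fold higher in PLZF lu/lu and 1.79-fold higher in PLZF +/lu than in PLZF +/+. On a log2 scale with PLZF lu/lu at 0 and PLZF +/+ at 1, PLZF +/lu lay at 0.01 for Abcb1a and at 0.28 for Abcb1b. In PLZF +/+ cells, Abcb1b was only slightly brighter than the olfactory receptor level. Set against the bound of 178, a choice made after its values were seen, it was at least 1.51-fold higher in PLZF lu/lu, whereas Abcb1a lay above that bound on every array. With 32 added to each intensity, the log2 differences between PLZF lu/lu and PLZF +/+ were 0.98 for Abcb1a and 0.99 for Abcb1b, just short of 2-fold, and against PLZF +/+ averaged with PLZF +/lu they were 0.55 and 0.75. The genes are close copies, and signal that their probes share could not be separated here.

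Abcc1 exports glutathione conjugates and leukotriene C4. It was at 449 in PLZF lu/lu, 739 in PLZF +/lu and 1138 in PLZF +/+ cells, so that PLZF +/lu lay close to the middle, at 0.54 on the same scale. Abcc1 was 2.53-fold lower in PLZF lu/lu than in PLZF +/+, 1.65-fold lower in PLZF lu/lu than in PLZF +/lu, and 1.54-fold lower in PLZF +/lu than in PLZF +/+. All 3 values lay far above the olfactory receptor level. Abcc1 ran in the direction of Zbtb16, and Abcb1b ran against it. Abcb1a was lowest in PLZF +/+, where Zbtb16 was highest, but was nearly equal in PLZF lu/lu and PLZF +/lu.

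**Figure D2:**
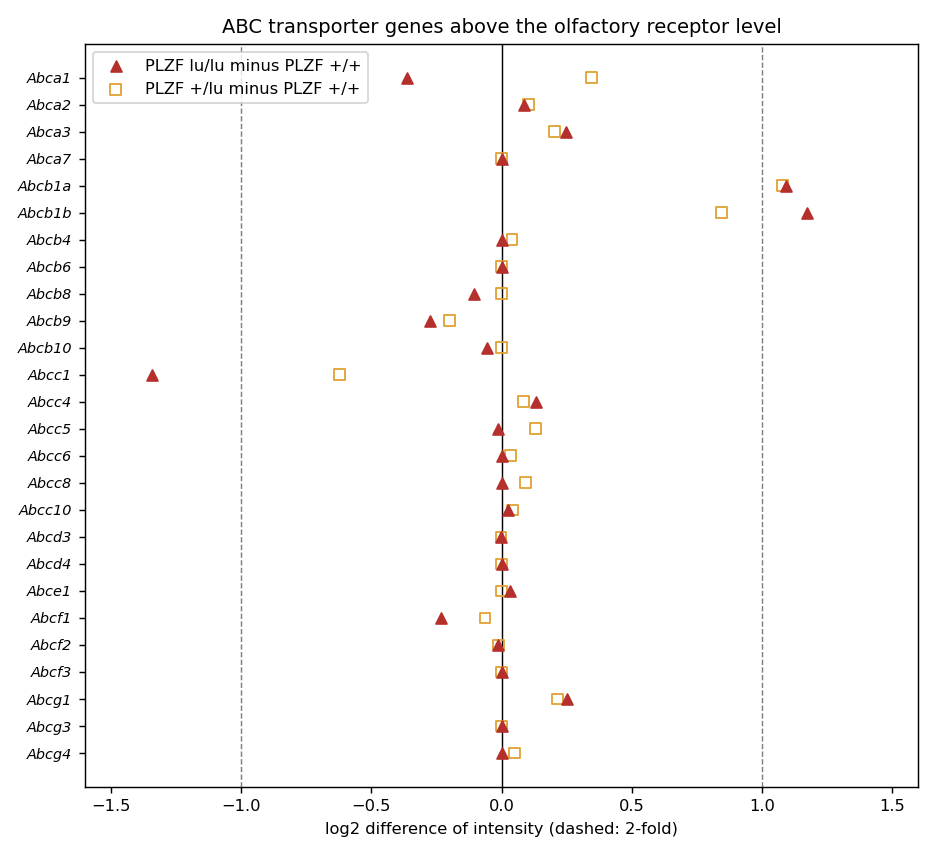
Log2 difference of intensity for the 26 ABC transporter genes above the olfactory receptor level, with filled triangles for PLZF lu/lu minus PLZF +/+ and open squares for PLZF +/lu minus PLZF +/+. Abcb1a (1.09) and Abcb1b (1.17) lie right of the dashed 2-fold line and Abcc1 (-1.34) left of it for PLZF lu/lu, while the other 23 lie between -0.36 and 0.25.

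Between PLZF +/lu and PLZF +/+ cells, Abcb1a was the 1 member of 26 past 2-fold, where 0.217% of 11958 genes were. At 1.5-fold Abcb1a, Abcb1b and Abcc1 passed, 3 of 26 where 1.24% of all genes did. Between PLZF lu/lu and PLZF +/lu cells, 0 members were past 2-fold, where 0.201% of 11959 genes were. At 1.5-fold Abcc1 and Abca1 passed, 2 of 26 where 0.786% of all genes did. These comparisons share arrays and are not independent of each other.

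Abca1, which loads cholesterol onto apolipoprotein A-I, had no graded order. It was at 463 in PLZF lu/lu, 756 in PLZF +/lu and 596 in PLZF +/+ cells, 1.63-fold lower in PLZF lu/lu than in PLZF +/lu and 1.29-fold lower than in PLZF +/+. The other cholesterol exporter, Abcg1, was at 2152, 2096 and 1808 in the same order of genotypes, a log2 difference of 0.25 between PLZF lu/lu and PLZF +/+. The 2 sterol exporters thus differed from PLZF +/+ in opposite directions in PLZF lu/lu, each by less than 1.5-fold. The lipid transporter genes Abca3 (608, 590 and 512) and Abca2 (1679, 1699 and 1583) were slightly higher in both luxoid genotypes, and Abca7, a phospholipid transporter, was at 779 on each array. Abcg3, a rodent gene of the same subfamily, was at 827 on each array. Abcg4 was at 142, 147 and 142.

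The remaining B and C genes above the olfactory receptor level stayed within 1.5-fold in every pair of genotypes. Abcb9, a peptide transporter of the lysosome, was at 508 in PLZF lu/lu, 536 in PLZF +/lu and 615 in PLZF +/+ cells, a log2 difference of -0.27 for PLZF lu/lu minus PLZF +/+. The mitochondrial genes Abcb8 (314, 337 and 337) and Abcb10 (225, 234 and 234) were lower in PLZF lu/lu by 0.10 and 0.06 on the log2 scale. Abcc4, which exports cyclic nucleotides and prostaglandins, was at 1222, 1181 and 1115, and Abcc5, which also exports cyclic nucleotides, at 675, 745 and 681. Abcc10, a further drug pump, was at 369, 372 and 362. Among the multidrug pumps above the level, none but the P-glycoprotein pair and Abcc1 separated PLZF lu/lu from PLZF +/+ cells by more than 1.5-fold.

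The ribosomal and peroxisomal members also stayed within 1.5-fold. Abce1, which splits ribosomes for reuse after termination, was at 3326 in PLZF lu/lu and 3256 in both other genotypes. Abcf1, which acts in translation initiation, was at 782 in PLZF lu/lu, 880 in PLZF +/lu and 919 in PLZF +/+ cells, a log2 difference of -0.23 for PLZF lu/lu minus PLZF +/+. Abcf2 was at 1266, 1269 and 1278, and Abcf3 at 754 on each array. The peroxisomal gene Abcd3 was at 747, 747 and 748, and Abcd4, which serves the lysosomal release of cobalamin, at 329 on each array.

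The genes next to Abcb1a on chromosome 5 were looked at because the pair differed together, and those named here were chosen after their values were seen. Rundc3b, whose gene model lies on the opposite strand and overlaps that of Abcb1a by 56.0 kb in GRCm38.p6, was at 1808 in PLZF lu/lu, 1729 in PLZF +/lu and 1005 in PLZF +/+ cells. It was 1.80-fold higher in PLZF lu/lu than in PLZF +/+, and PLZF +/lu lay near PLZF lu/lu, as for Abcb1a. Signal that overlapping genes may share was not tested. On the far side of Abcb1b the next gene, Abcb4, a phosphatidylcholine exporter of the liver, was equal in PLZF lu/lu and PLZF +/+ and close to the olfactory receptor level. Crot, beyond it, had a log2 difference of 0.04. On the near side, Slc25a40, beyond Rundc3b, was at 999, 867 and 809. Around Abcc1 on chromosome 16, none of the 9 measured neighbours differed between PLZF lu/lu and PLZF +/+ by more than 1.16-fold.

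**Figure D3:**
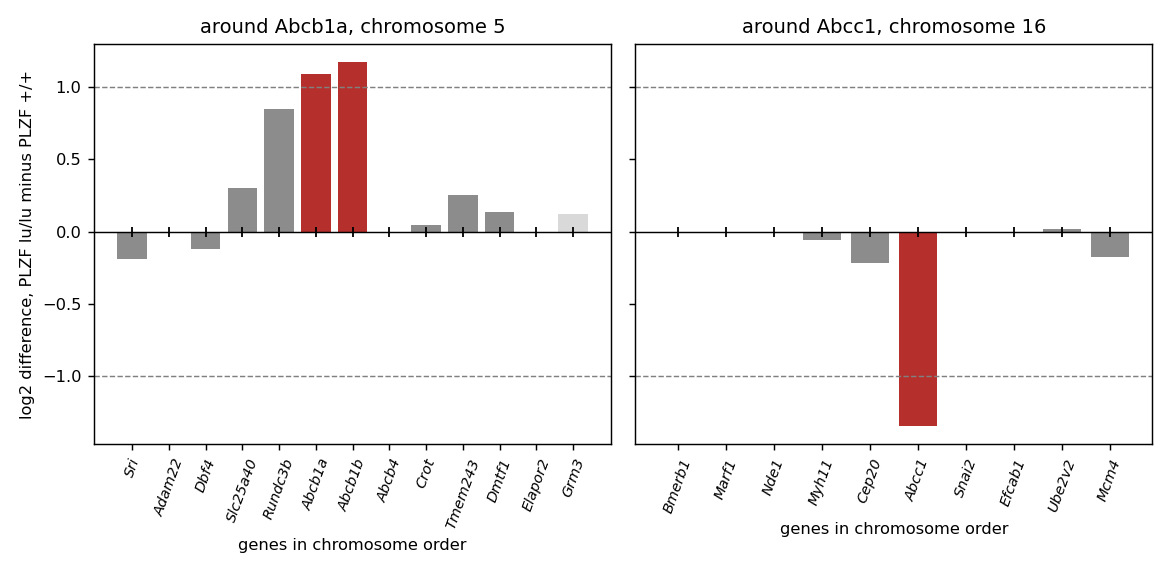
Log2 difference of intensity, PLZF lu/lu minus PLZF +/+, for genes in chromosome order around Abcb1a (left) and Abcc1 (right), with ABC transporter genes in red, other genes above the olfactory receptor level in dark grey and genes below it in light grey. A tick without a bar is a gene with equal values. Rundc3b (0.85), Abcb1a (1.09) and Abcb1b (1.17) stand side by side, and Abcc1 (-1.34) stands alone among its neighbours.

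Genes that work with ABC transporters were read from lists of their pathways. Genes of glutathione synthesis and glutathione-linked enzymes were listed because Abcc1 exports glutathione conjugates. Of the 14 measured, 1 was more than 2-fold lower in PLZF lu/lu than in PLZF +/+ and 0 were higher. Of all genes above the level, 0.446% were lower by this threshold and 0.253% higher. The lower gene was Gsto1, an omega-class glutathione transferase. It was at 253 in PLZF lu/lu, 547 in PLZF +/lu and 950 in PLZF +/+ cells, or 3.76-fold lower in PLZF lu/lu. Gstp1, the pi-class enzyme, was at 2547, 2727 and 4128 in the same order, 1.62-fold lower in PLZF lu/lu, and has close copies in the mouse genome whose signal it may include. Both enzyme genes ran in the direction of Abcc1, while Mgst2 of the same list ran the other way, at 1690, 1574 and 1431. Of the 11 list genes above the level, 5 were lower in PLZF lu/lu than in PLZF +/+, 2 higher and 4 equal. Over the list the log2 differences had a median of 0.00, and Gclc, the catalytic subunit of the first step of glutathione synthesis, was at 1339 on each array. Ltc4s, which makes leukotriene C4, was at 133 on each array.

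Of 20 measured sterol and drug sensing regulators and their targets, 0 differed by more than 2-fold, where 0.43% of all genes did. These 20 include Abca1 and Abcg1, members already described above. Rxra, the common partner of the nuclear receptors that control Abca1 and Abcg1, came closest, at 396 in PLZF lu/lu, 463 in PLZF +/lu and 785 in PLZF +/+ cells, 1.98-fold lower in PLZF lu/lu. Its relative Rxrb was equal in PLZF lu/lu and PLZF +/+, at 933. Nr1h3, a sterol receptor, was near the olfactory receptor level, at 120, 126 and 126, and the drug sensors Nr1i2 and Nr1i3 lay below it. Nr1h2, the related receptor on the list, was not among the genes measured. Of 6 genes of sphingosine-1-phosphate (S1P), a lipid that some ABC proteins export, S1pr1, the receptor used in leaving the thymus, was 1.55-fold higher in PLZF lu/lu, at 8144, 6722 and 5243. Tap1 and Tap2, the ABC proteins of antigen peptide transport, whose symbols fall outside the choice of members, were at 1731, 1994 and 1731 and at 1313, 1491 and 1568. None of 9 measured peptide loading genes, nor of 5 peroxisomal, 4 cobalamin and 10 ribosome recycling genes, was past 1.5-fold, where 2.25% of all genes above the level were. Of 12 iron-sulfur and haem genes, Isca1, an iron-sulfur assembly factor, was past it, at 1316, 1489 and 2172, or 1.65-fold lower in PLZF lu/lu.

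**Figure D4:**
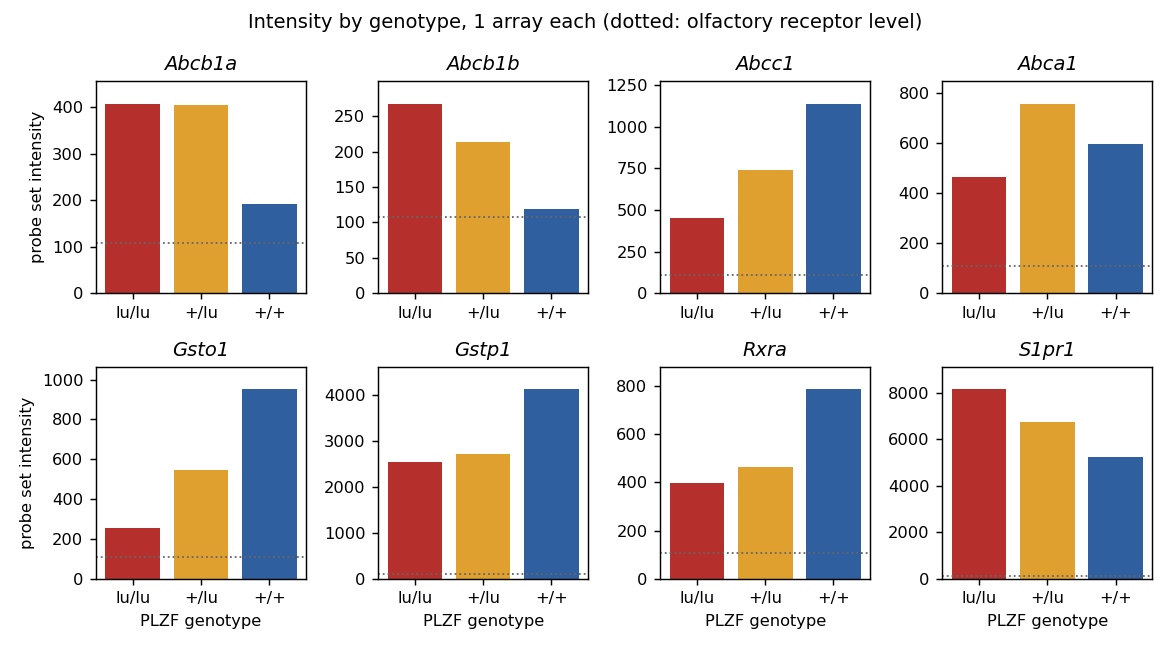
Probe set intensity by genotype, PLZF lu/lu in red, PLZF +/lu in orange and PLZF +/+ in blue, with 1 array each and an axis from 0 for each gene; the dotted line is the olfactory receptor level of 108. Abcb1a, Abcb1b and S1pr1 are higher in PLZF lu/lu than in PLZF +/+ cells, Abcc1, Gsto1, Gstp1 and Rxra are lower, and Abca1 has its highest value, 756, in PLZF +/lu.

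Of 6 markers of CD8 T cells and CD4+CD8+ thymocytes, the CD8 chain genes differed between the genotypes, with Cd8b1 past 2-fold (0.699% of all genes above the level) and Cd8a past 1.5-fold (2.25%), both higher in PLZF lu/lu. Cd8b1 was at 2958 in PLZF lu/lu, 2263 in PLZF +/lu and 1290 in PLZF +/+ cells, and Cd8a at 601, 519 and 369. The thymocyte genes stayed within 1.5-fold, with Dntt at 210, 157 and 162, Ptcra at 167 on each array and Rag2 below the olfactory receptor level on each. Rag1 was at 278, 211 and 229, above the level although the mice are described as lacking Rag1. The summed intensity of the 6 was 4265 in PLZF lu/lu, 3366 in PLZF +/lu and 2267 in PLZF +/+ cells, most of it from Cd8b1. This sum had the genotype order of Abcb1b, the reverse of that of Abcc1. Abcb1a, nearly equal in PLZF lu/lu and PLZF +/lu, was likewise lowest in PLZF +/+. The part of this sum in the differences of the ABC transporter genes was not tested. The cells were sorted as CD8α-, a gate that removes cells with surface CD8α. In bulk RNA, more cells of a kind and more RNA per cell cannot be told apart. The summed markers of B cells (181 in all 3 genotypes), myeloid cells (625, 624 and 624) and NK cells (144, 147 and 147) hardly differed. Cd79a, Lyz2 and Csf1r lay below the level. The myeloid marker Cd68 was above it, at 386 on each array, and the B cell marker Pax5 lay at it, at 108, 109 and 108. The summed markers of endothelium (2847, 2832 and 2832) and thymic epithelium (421, 432 and 432) hardly differed either. Both lists held genes above the level. Of endothelium, Pecam1, at 2643 on each array, made most of the sum. Cdh5 was just above the level, at 139, 125 and 125, and Kdr lay below it, at 64.7 on each array. Of thymic epithelium, Krt8 and Foxn1 were above the level and Epcam and Krt5 below it.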

How the data were processed

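Scans were processed by the authors in GenePattern, with its modules for expression files and Multiplot, and probe sets of normalization controls were removed. They deposited 24800 linear probe set intensities for each array. Build mm 8 is named in the submitters' processing notes. How probes were summarised and scaled is not stated in the sources used. Deposited intensities, with array medians of 160, 162 and 160 (PLZF lu/lu, PLZF +/lu, PLZF +/+), were used without further scaling, and 0 value columns were left unmatched. The number of arrays limits the precision.

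Genes were named from the platform annotation, where 21065 probe sets list 1 gene, 1187 several and 2548 none. Symbols were updated through gene identifiers to RefSeq (GRCm38.p6) for 20983, and no symbol of an ABC transporter gene changed. Where a gene had more than 1 probe set, that with the highest mean log2 intensity was used. Promoter windows were found for 38 of the 48 members. Only the 250 bases before the start were used. The files' build differs from GRCm38.p6, so these coordinates are those of RefSeq and not of probes.

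Differences are of log2 intensities. The members and lists were chosen with earlier results of these data known. Named genes are Abcb1a, Abcb1b, the 4 members with the highest mean log2 intensity in each subfamily, members above the olfactory receptor level that differ by over 1.5-fold in any pair, members nearest that level, and list members past 1.5-fold. Others were named after their values were seen. Alternatives were quantile normalization, median centring, cyclic loess, adding 32, the mean over probe sets, the 99% bound, other thresholds and averaged genotypes. Python 3.11.15, numpy 2.4.6, pandas 2.3.3, matplotlib 3.10.9, R 4.3.3 and limma 3.58.1 were used. The counting was tested on simulated data.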

Additional observations from a re-analysis of the deposited data

How the results depend on the processing

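The number of ABC transporter genes past 2-fold between PLZF lu/lu and PLZF +/+ was 3. It stayed at 3 under quantile normalization, median centring, cyclic loess, the mean over probe sets and at 1.5-fold, and was 0 at 3-fold. It was 1 with 32 added to each intensity, and 1 when PLZF lu/lu was set against PLZF +/+ averaged with PLZF +/lu, an average that by construction lessens any graded difference. When instead PLZF lu/lu was averaged with PLZF +/lu and set against PLZF +/+, it was 2. These were Abcb1a and Abcb1b, and Abcc1 fell just short of 2-fold. The 6 alternatives planned for single genes leave out that last average. Abcc1 stayed past 2-fold in all 6 (-1.34 to -1.03), and Abcb1a (0.55 to 1.10) and Abcb1b (0.75 to 1.17) in 4 of them, each without a change of direction. The number above the olfactory receptor level on at least 1 array was 26 under each scaling and 21 with the 99% bound, which Abcb1b passed only in PLZF lu/lu and PLZF +/lu. The median stayed at 0.00 to 2 decimals. No paired analysis was possible because there was 1 array per genotype, and low signal limits the folds of genes near the olfactory receptor level, Abcb1b in PLZF +/+ among them.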
